A study of Mus musculus with 12 samples.

Results

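In TM4 cells, a mouse Sertoli cell line, 2 of the 3 libraries of the control shRNA (shNC) had an expression programme unlike that of the other 4 TM4 libraries, namely shNC replicate 3 and shM5 replicates 1, 2 and 3. The pair, shNC replicates 1 and 2, was selected on its measured RPKM values (reads per kilobase of transcript, scaled to the library's mapped reads) for all described genes, so everything said of the pair against the other 4 is a description without a test. The values were described for 11016 of 17995 genes, those averaging 0.5 RPKM or more in TM4 cells. Of the 6979 genes left out, 2373 were listed at 0 in all 6.

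The series held 12 RNA-seq libraries, 3 of each of 4 groups, from TM4 cells and from C18-4 cells (a line of mouse spermatogonial stem cells). In each line cells received shNC or shM5, a mixture of 3 shRNAs against the M5 muscarinic acetylcholine receptor, with the shRNAs in lentiviral vectors given with the RNAi-mate reagent. The labels give the strain of all 12 libraries as IRC, and they do not say whether replicates came from separate cultures. No untransfected TM4 library was analysed here, so all 6 carried an shRNA, and by their labels the 2 groups differed in the shRNA alone.

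The pathways that differed most in the pair are well known. When amino acids run short, proteins misfold in the endoplasmic reticulum (ER), haem is lacking or double-stranded RNA is present, kinases phosphorylate the translation factor eIF2α, and the transcription factor ATF4 is made from its mRNA more efficiently. ATF4 and its partners then activate genes of amino acid import and synthesis, tRNA charging, and the factors Atf3, Ddit3 and Trib3. Type I interferon acts separately on the interferon-stimulated genes, and SREBP2 acts on the genes of cholesterol synthesis.

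The pair was first compared as whole libraries. The root mean square log2 difference over the described genes was 0.189 between shNC replicates 1 and 2, and from 0.640 to 0.677 between either of them and any of the other 4. ShNC replicate 3 differed from shM5 replicates 1, 2 and 3 by 0.257, 0.253 and 0.202, which was within the range of 0.201 to 0.271 among the shM5 replicates. The libraries of the pair were not copies of each other. Among genes averaging 20 RPKM or more in TM4, 0.12% of their values were identical, against 0.16% between shM5 replicates 1 and 2. The lowest value steps in 263 low genes gave relative depths between 0.98 and 1.02 over the 12 libraries, 1.02 and 1.01 in the pair. Only values close to the lowest of each gene were kept, so these steps could not show a large difference in depth. RPKM values above 0 were listed for 13874 and 13857 genes in the pair and for 13625 to 13742 in the others, and the values summed to 518591 and 512868 in the pair and 535074 to 538387 in the others.

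For each gene, the gap was defined as the ratio between the nearest values of the 2 sets after 0.1 was added to each RPKM, a scale that understates differences of low genes. A gene with a gap of at least 2-fold was called set apart. By this rule 336 genes (3.05%) were set apart higher in the pair and 273 genes (2.48%) were set apart lower. A gene was called wholly higher or lower when the sets did not overlap. The pair was wholly higher in 3902 genes (35.4%) and wholly lower in 4487 (40.7%), and the sets overlapped in 2627 (23.8%). Since the choice of the pair used these values, these shares serve only as the background for the gene lists that follow.

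The higher side held the larger gaps. A gap over 4-fold was seen for 67 genes higher in the pair and 4 genes lower, and one over 8-fold for 17 genes, all higher. The genes set apart higher made up 4.55% and 4.59% of the summed RPKM in the pair and 1.42% to 1.54% in the other 4 libraries. Those set apart lower made up 0.78% and 0.77% in the pair and 2.06% to 2.16% in the others. The median log2 ratio over all described genes, each gene taken at the median of its 8 pairwise ratios, was -0.04, and that median is the size given for a gene below.

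**Figure D1:**
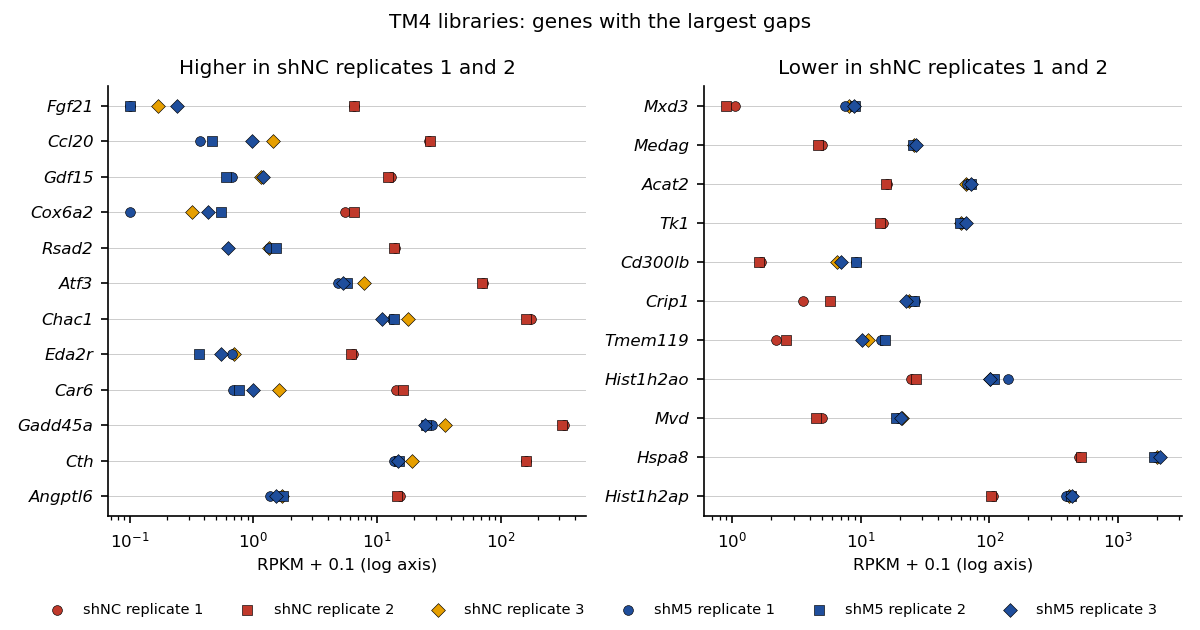
RPKM plus 0.1 on a log axis in the 6 TM4 libraries, for genes with the largest gaps in each direction among those at 5 RPKM or more in every library of the high side. Each point is 1 library. The red points of the pair lie apart from the yellow (shNC replicate 3) and blue (shM5) points, from a gap of 27.1-fold for Fgf21 to one of 7.24-fold in the other direction for Mxd3.

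The largest gap belonged to Fgf21, which encodes a secreted metabolic hormone known as an ATF4 target. Fgf21 was at 6.41 and 6.47 RPKM in the pair, at 0.07 in shNC replicate 3, at 0.14 in shM5 replicate 3, and was listed at 0 in shM5 replicates 1 and 2. The gap was 27.1-fold, which rests on low values in the other 4. With a pseudocount of 1 the gap of Fgf21 was 2.70 on the log2 scale, below that of Ccl20 (3.54). The chemokine gene Ccl20 came next, with 26.37 and 26.58 RPKM in the pair and 1.35, 0.27, 0.36 and 0.87 RPKM in shNC replicate 3 and shM5 replicates 1 to 3. For Ccl20 as for Fgf21, all of the other 4 libraries were far below the pair. Gdf15, a stress-induced cytokine of the TGF-β family, was at 13.01 and 12.21 RPKM in the pair and between 0.50 and 1.10 RPKM in the others.

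The gap of Gdf15 was 10.3-fold. The other 9 of the 12 genes with the largest gaps on the higher side had gaps from 8.26-fold to 10.1-fold. They were Cox6a2 (the muscle form of a cytochrome c oxidase subunit), Rsad2 (viperin, an antiviral protein), Atf3, Chac1 (an enzyme that degrades glutathione), Eda2r (a receptor of the TNF family), Car6 (a secreted carbonic anhydrase), Gadd45a (a growth arrest gene), Cth (which makes cysteine from cystathionine) and Angptl6. Among these, Gadd45a was abundant, at 329.47 and 311.62 RPKM in the pair and 35.50, 27.60, 24.82 and 24.42 RPKM in the other 4. Chac1 was at 176.22 and 161.69 RPKM in the pair and at 17.90, 13.10, 13.53 and 10.95 RPKM in the others. In both genes shNC replicate 3 was the highest of the 4 libraries outside the pair.

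Of 23 regulators and targets of the ATF4 pathway over the filter, 17 (73.9%) were set apart higher and 0 lower, against 3.05% and 2.48% of all genes. The pair was wholly higher in 21 of the 23 and wholly lower in 2 (91.3% and 8.7%, against 35.4% and 40.7% of all genes). The median member was 1.68 higher on the log2 scale. The mRNA of Atf4 itself was at 445.75 and 432.18 RPKM in the pair and at 296.87, 267.43, 275.26 and 275.35 RPKM in the other 4, a median of 1.59-fold, and did not reach the 2-fold gap. Its downstream factors were further apart. Ddit3, which encodes CHOP, was at 110.63 and 119.16 RPKM in the pair and at 28.85, 27.86, 30.49 and 24.75 in the others.

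Atf3, a repressor and activator induced by stress, was at 72.40 and 71.01 RPKM in the pair and at 7.76, 4.73, 5.59 and 5.21 RPKM in the other 4. Trib3, a pseudokinase that binds AKT and ATF4, was at 80.48 and 78.05 RPKM against 11.68, 8.60, 9.01 and 9.83 RPKM. Both had gaps well over 2-fold, 9.04-fold for Atf3 and 6.63-fold for Trib3. Asns, asparagine synthetase, was at 528.77 and 539.03 RPKM in the pair and between 176.56 and 196.51 in the others. Nupr1, a small stress-induced chromatin protein chosen after its values were seen, was at 439.79 and 446.59 RPKM in the pair and between 55.20 and 65.05 in the others. The 2 members wholly lower in the pair were Eif2ak3 and Eif2ak4, which encode the eIF2α kinases PERK and GCN2, with log2 sizes of -1.03 and -0.31.

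The promoters of the set-apart genes were searched for motifs, a feature that the choice of the pair did not use. The windows ran from 250 bases before to 50 bases after annotated RefSeq starts on the GRCm38.p6 build, and were found for 270 of the 336 higher genes (365 windows), 211 of the 273 lower genes (287 windows) and 8897 of all described genes (11378 windows). The C/EBP-ATF response element (CARE), searched as TTGCATCA on both strands, is the composite site that ATF4 and C/EBP factors bind. It was present in 4.38% of the windows of higher genes, 0.348% of those of lower genes and 0.598% of all windows. The 16 windows of higher genes with the element belonged to 16 genes, among them Fgf21, Chac1, Atf3, Nupr1, Slc7a11, Herpud1, Pycr1, Slc1a4, Aars and Yars. Besides the elements given below, others were searched in the same windows. The AP-1 site was in 12.1% of windows of higher genes, 5.57% of lower and 5.04% of all. In the same order, the E2F site was in 0%, 2.44% and 0.668%. The antioxidant element was in 14.8%, 15.7% and 14.4%, and the cyclic AMP element in 2.47%, 0.697% and 3.15%. The heat shock element was in 0%, 0% and 0.466%. A match is a description of the letters in the window and was not tested as a binding site.

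The stretches around the element are shown for 6 of these genes, because they come from different roles in the pathway (hormone, glutathione enzyme, transcription factor, chromatin protein, cystine transporter and ER degradation) and share the same 8 letters. Capitals mark the element, on either strand, and each sequence is read 5′ to 3′ along the strand of the gene. The positions are chr2:119351025-119351080 on the plus strand for Chac1, chr7:45615598-45615653 on the minus strand for Fgf21, chr1:191183412-191183467 on the minus strand for Atf3, chr7:126625549-126625604 on the minus strand for Nupr1, chr3:50443629-50443703 on the minus strand for Slc7a11, and chr8:94386293-94386348 on the plus strand for Herpud1. The element began 193 bases before the start of Chac1, 139 before that of Fgf21, 110 before those of Atf3 and Nupr1, and 112 before that of Herpud1. Slc7a11 had 2 copies, which began 66 and 47 bases before its start, in opposite orientations.
Chac1: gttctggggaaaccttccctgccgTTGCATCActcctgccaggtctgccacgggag
Fgf21: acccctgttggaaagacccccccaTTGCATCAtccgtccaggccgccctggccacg
Atf3: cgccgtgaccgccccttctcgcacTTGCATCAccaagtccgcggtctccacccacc
Nupr1: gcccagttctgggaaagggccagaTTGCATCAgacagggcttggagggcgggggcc
Slc7a11: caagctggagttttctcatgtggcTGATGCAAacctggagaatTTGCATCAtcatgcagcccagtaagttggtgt
Herpud1: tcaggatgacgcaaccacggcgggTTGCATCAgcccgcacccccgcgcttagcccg

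Genes that bring amino acids into the cell were higher together. Of 13 amino acid transporters over the filter, 8 (61.5%) were set apart higher and 0 lower, and the pair was wholly higher in 11 (84.6%). Of all genes, 3.05% were set apart higher, 2.48% lower and 35.4% were wholly higher. Slc7a11, the cystine transporter whose promoter is printed above, was at 25.51 and 26.28 RPKM in the pair and at 3.55, 2.78, 2.52 and 2.92 RPKM in the others. Slc7a3, a transporter of arginine and lysine, was at 47.67 and 49.09 RPKM in the pair and between 6.95 and 10.81 in the others. Slc6a9, the glycine transporter GlyT1, was at 46.70 and 45.58 RPKM in the pair and between 7.10 and 8.94 in the others.

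Enzymes that make serine, proline and one-carbon units showed the same direction, with 7 of 17 set apart higher, 0 lower, and 15 wholly higher. As shares they were 41.2%, 0% and 88.2%, against 3.05%, 2.48% and 35.4% of all genes. Pycr1, which completes proline synthesis, was at 32.68 and 30.96 RPKM in the pair and at 8.78, 8.97, 10.83 and 7.59 in the others. Psph, the last enzyme of serine synthesis, was at 147.23 and 150.61 RPKM against 46.58, 39.93, 41.25 and 43.78 RPKM. Aldh1l2, a mitochondrial folate enzyme, was at 93.97 and 97.57 RPKM in the pair and between 26.71 and 29.76 in the others. The 2 members wholly lower in the pair, Mthfd1 (log2 size -0.43) and Tyms (-0.25), are the cytosolic folate enzyme and thymidylate synthase.

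Of 20 cytosolic aminoacyl-tRNA synthetase genes, 8 (40%) were set apart higher and 17 (85%) were wholly higher, against 3.05% and 35.4% of all genes. The median member was 0.91 higher on the log2 scale. Wars, for tryptophan, was at 81.32 and 82.11 RPKM in the pair and between 29.07 and 31.52 in the others. Nars, for asparagine, was at 284.65 and 291.44 RPKM in the pair and between 113.55 and 121.80 in the others. The remaining 3 were wholly lower, Hars and Kars by small differences (80.40 and 79.28 RPKM against 82.98 to 87.79 for Hars) and Qars by more than the 2-fold gap. Qars, for glutamine, was at 19.88 and 19.44 RPKM in the pair and at 46.99, 47.89, 50.47 and 45.48 RPKM in the others, a gap of 2.28-fold lower.

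The ER arm was mixed. Of 20 chaperones and regulators of the unfolded protein response, 3 were set apart higher, 0 lower, 7 were wholly higher and 11 wholly lower. As shares they were 15%, 0%, 35% and 55%, against 3.05%, 2.48%, 35.4% and 40.7% of all genes. The 3 were Herpud1 (an ER degradation factor), Atf6 and Ern1, the genes of the stress sensors ATF6 and IRE1. Ern1 was at 34.46 and 35.85 RPKM in the pair and at 11.32, 11.46, 12.53 and 12.83 in the others. Chaperone and folding genes such as Pdia4 (-0.82), Calr (-0.72) and Hsp90b1 (-0.47) lay on the lower side on the log2 scale, and Hspa5, the gene of BiP, was 0.36 higher. These 4 were named after their values were seen. The ER stress element (ERSE), searched on both strands, was in 8 of 17 promoter windows of the list, in 0.123% of all windows and in 0 windows of the genes set apart in either direction.

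The NRF2 and heat shock lists did not share the direction of the ATF4 list. Of 22 antioxidant genes of the factor NRF2, 1 was set apart higher, 1 lower, 4 were wholly higher and 13 wholly lower. These were 4.55%, 4.55%, 18.2% and 59.1%, against 3.05%, 2.48%, 35.4% and 40.7% of all genes. Sqstm1, which encodes the autophagy adaptor p62 and stands in the NRF2 and the autophagy lists, was the one set apart higher, at 484.35 and 462.93 RPKM in the pair and at 110.39, 85.33, 88.33 and 97.42 in the others. Gsr, glutathione reductase, was the one set apart lower, at 12.84 and 14.03 RPKM against 29.82 to 33.15 RPKM. Of 21 autophagy and lysosome genes, 18 (85.7%) were wholly higher and 2 (9.52%) wholly lower. Of the 21, Sqstm1 alone reached the 2-fold gap.

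Of 10 cytosolic heat shock genes, 0 were set apart higher and 2 lower (20%, against 2.48% of all genes). Hspa8, the constitutive HSC70 chaperone and by its mean the most abundant of the genes set apart, was at 497.71 and 513.82 RPKM in the pair and at 2017.25, 1948.67, 1900.11 and 2127.40 RPKM in the other 4, a gap of 3.7-fold. Dnajb1, its HSP40 partner, was at 11.15 and 10.77 RPKM in the pair and between 26.18 and 28.72 in the others. Hspa8 has processed pseudogenes, whose reads the mapping may have split. Among 16 p53 targets over the filter, 2 (12.5%, against 3.05% of all genes) were set apart higher and 0 lower. They were Plk2 (252.20 and 251.76 RPKM against 43.17 to 70.95) and Bbc3, which encodes the pro-apoptotic protein PUMA (4.58 and 3.66 RPKM against 1.58 to 1.78). The list lay on both sides, with 8 wholly higher (50%) and 6 wholly lower (37.5%), against 35.4% and 40.7% of all genes. Fas was among the lower, at 3.70 and 2.94 RPKM in the pair and between 6.14 and 8.73 in the others. Bbc3 was under the 2-fold gap with a pseudocount of 1 (0.75 on the log2 scale). The p53 list was not exhaustive. Gadd45a, Eda2r and Gdf15, with gaps of 8.75-fold, 8.97-fold and 10.3-fold, were not counted in it.

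Of these lists, the ATF4 list was higher in the pair and the NRF2 and heat shock lists were not. The pair was chosen by these same values, and the lists were written with earlier results known. The counts are therefore no support for calling these 2 controls a stress state, which was not tested. The pair is named here by its replicates.

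**Figure D2:**
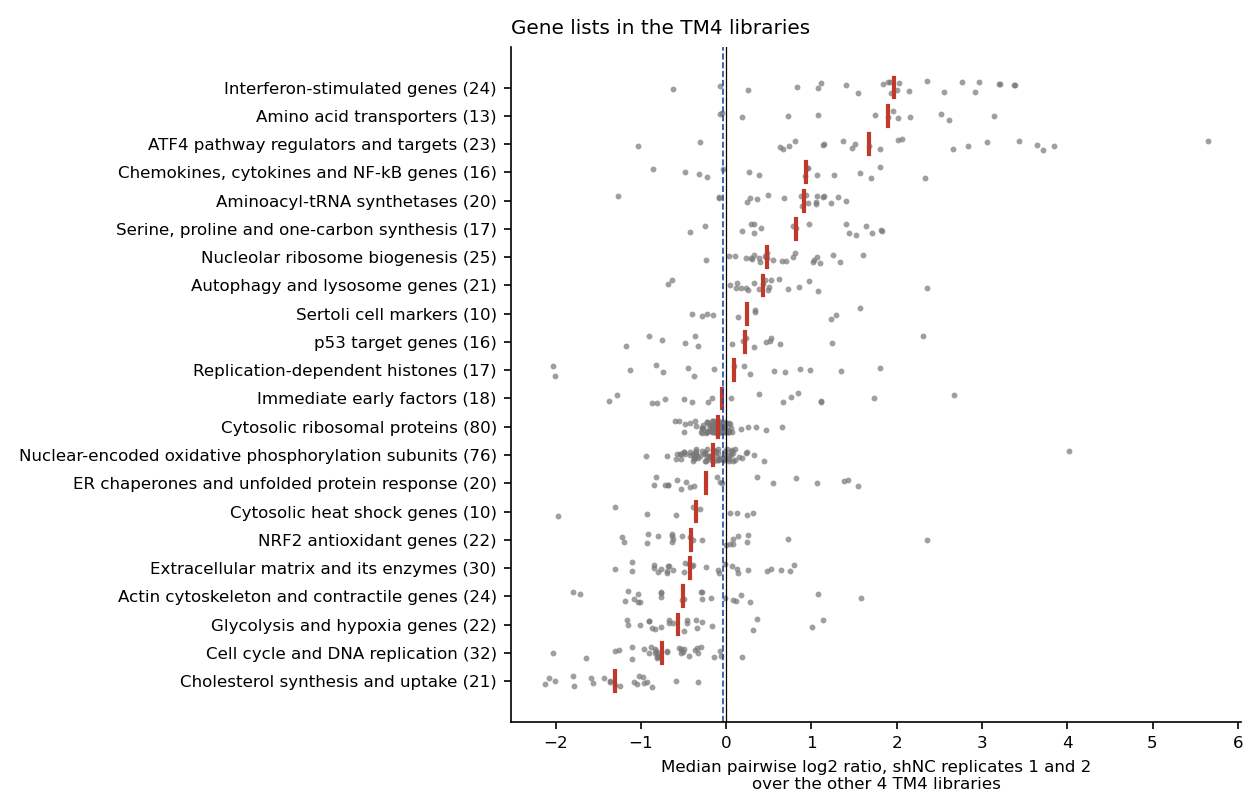
Median pairwise log2 ratio of the pair over the other 4 TM4 libraries for each gene (grey points) of the lists with at least 10 genes over the filter, with the number of genes in brackets and the list median as a red bar. The dashed line is the median of all described genes (-0.04). The list medians run from 1.97 for interferon-stimulated genes to -1.31 for cholesterol synthesis.

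Interferon-stimulated genes were the second large group. Of 24 over the filter, 15 (62.5%) were set apart higher, 0 lower, and the pair was wholly higher in 22 (91.7%). The shares of all genes were 3.05%, 2.48% and 35.4%. Their summed RPKM was 644.25 and 634.39 in the pair, 129.76 in shNC replicate 3, 254.00 and 247.97 in shM5 replicates 1 and 2, and 116.06 in shM5 replicate 3. Usp18, which removes ISG15 from proteins and dampens interferon signalling, was at 19.38 and 18.88 RPKM in the pair and at 1.37, 2.19, 2.33 and 0.21 RPKM in the others. Rsad2 was at 13.86 and 13.74 RPKM in the pair and at 1.24, 1.24, 1.42 and 0.52 RPKM in the others. Cmpk2, a mitochondrial nucleotide kinase next to Rsad2, was lower in level, at 2.57 and 3 RPKM in the pair and between 0.15 and 0.36 in the others.

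This group was also the one in which the 4 libraries outside the pair were furthest from each other. In 22 of the 24 genes, both libraries numbered 3 (shNC and shM5) were below shM5 replicates 1 and 2, and in 0 they were both above, against 3706 of all 11016 genes below and 2338 above. Ifit1, an antiviral protein gene chosen after its values were seen, was at 119.12 and 118.66 RPKM in the pair, 21.91 and 22.13 in shM5 replicates 1 and 2, and 11.12 and 7.15 in shNC replicate 3 and shM5 replicate 3. The levels therefore formed 3 steps, with the pair at the top. The labels do not say what the libraries numbered 3 share.

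Promoters of the list were searched for the interferon-stimulated response element (ISRE) on both strands. It was in 45.5% of the 22 windows of the list, 11.2% of windows of genes set apart higher, 2.09% of those set apart lower and 3.01% of all windows. The stretches of Ifit1 (chr19:34640761-34640837, plus strand, 2 copies beginning 104 and 85 bases before the start) and Rsad2 (chr12:26456539-26456596, minus strand, 1 copy 120 bases before the start) are shown because both genes were over 5-fold apart in gap, with the element in capitals.
Ifit1: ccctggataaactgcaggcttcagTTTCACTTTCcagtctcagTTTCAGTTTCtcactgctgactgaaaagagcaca
Rsad2: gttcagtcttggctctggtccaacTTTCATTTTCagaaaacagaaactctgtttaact

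Of 16 chemokines, cytokines and genes of NF-κB over the filter, 4 were set apart higher, 0 lower, 9 were wholly higher and 3 wholly lower. The shares were 25%, 0%, 56.2% and 18.8%, against 3.05%, 2.48%, 35.4% and 40.7% of all genes. Cxcl10, a chemokine also induced by interferon, was at 382.04 and 390.63 RPKM in the pair, 54.35 and 40.05 in the libraries numbered 3, and 110.90 and 108.83 in shM5 replicates 1 and 2. Ccl7, a monocyte chemokine, was at 679.34 and 702.29 RPKM in the pair and at 212.36, 219.83, 213.34 and 148.80 in the others. Tnfaip3, which encodes the NF-κB inhibitor A20, was at 19.70 and 19.67 RPKM in the pair and between 5.30 and 6.44 in the others. Cxcl10 followed the 3 steps of the interferon-stimulated genes, whereas Tnfaip3 was nearly equal in the other 4 libraries.

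Genes of cholesterol synthesis and uptake were lower in the pair as a group. Of 21 over the filter, 11 (52.4%) were set apart lower and 0 higher, and the pair was wholly lower in all 21. The shares of all genes were 2.48%, 3.05% and 40.7%. The summed RPKM of the list was 432.34 and 434.02 in the pair and between 918.26 and 964.13 in the others. Acat2, which makes the acetoacetyl-CoA used in the pathway, was at 15.81 and 15.53 RPKM in the pair and at 65.14, 66.54, 71.69 and 72.28 RPKM in the others. Mvd, mevalonate diphosphate decarboxylase, was at 4.85 and 4.38 RPKM against 20.92, 19.33, 18.51 and 20.61 RPKM. Both genes were far lower in the pair than in any of the other 4 libraries.

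The synthase Hmgcs1, chosen after its values were seen, had the same pattern, at 10.48 and 10.98 RPKM in the pair and between 36.75 and 38.63 RPKM in the others. A sterol regulatory element, TCACNCCAC on both strands and added after the values were seen, was in 1 of the 16 windows of the list, that of Hmgcs1, and in 1.04% of all windows. Its stretch at chr13:119690190-119690246 on the plus strand is shown with the element, 137 bases before the start, in capitals.
Hmgcs1: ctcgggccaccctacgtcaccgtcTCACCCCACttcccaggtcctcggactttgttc

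Cell cycle and DNA replication genes were also lower. Of 32 over the filter, 4 (12.5%) were set apart lower, 0 higher, and the pair was wholly lower in 31 (96.9%), with Cdt1 wholly higher. Among all genes 2.48% were set apart lower, 3.05% higher and 40.7% were wholly lower. The median member was 0.75 lower on the log2 scale. Aurkb, the Aurora B mitotic kinase, was at 12.03 and 12.18 RPKM in the pair and at 42.71, 49.50, 50.94 and 49.66 RPKM in the others. Mki67, the proliferation marker Ki-67, was at 26.57 and 27.87 RPKM in the pair and between 80.15 and 90.07 in the others, and Kif20a, a mitotic kinesin, at 32.52 and 32.56 against 76.92 to 87.46 RPKM. Tk1, the S-phase thymidine kinase, was at 14.75 and 14.04 RPKM in the pair and between 59.14 and 66.13 in the others.

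The largest gap on the lower side was that of Mxd3, a MAX partner expressed in S phase, at 0.95 and 0.79 RPKM in the pair and at 8.04, 7.50, 8.89 and 8.68 RPKM in the others, or 7.24-fold. Myc, whose protein shares the partner MAX, lay in the other direction at 352.25 and 346.14 RPKM in the pair and 127.44, 98.68, 101.85 and 108.99 in the others. The replication-dependent histones Hist1h2ap and Hist1h2ao were lower by gaps of 3.69-fold and 3.76-fold, but their copies are nearly identical and how reads were shared among them is uncertain. Hist1h2ap was at 106.40 and 103.35 RPKM in the pair and between 392.57 and 435.70 in the others. Of 17 histone genes over the filter, 1 was set apart higher, Hist3h2a, and 2 lower (5.88% and 11.8%, against 3.05% and 2.48% of all genes). With a pseudocount of 1, Hist3h2a had a gap of 0.91 on the log2 scale, under 2-fold.

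Nucleolar genes of ribosome assembly were higher while the cell cycle genes were lower. Of 25, 4 (16%) were set apart higher, 0 lower, 22 (88%) were wholly higher and 1 (4%) wholly lower. The shares of all genes were 3.05%, 2.48%, 35.4% and 40.7%. Nop14, of the small-subunit processome, was at 196.57 and 196.33 RPKM in the pair and at 72.14, 63.68, 62.85 and 65.20 in the others. Nop58, a core protein of box C/D snoRNPs, was at 296.81 and 301.17 RPKM in the pair and between 114.72 and 136.66 in the others. By contrast, of 80 cytosolic ribosomal proteins, 0 were set apart in either direction, with a median of -0.10 on the log2 scale. The pair was wholly lower in 44 of them (55%) and wholly higher in 6 (7.5%), against 40.7% and 35.4% of all genes. Of 76 nuclear-encoded subunits of oxidative phosphorylation, 1 (1.32%) was set apart, Cox6a2 (5.45 and 6.42 RPKM in the pair, 0 to 0.45 in the others), and the median was -0.15. Wholly lower were 43 (56.6%) and wholly higher 9 (11.8%), against the same shares of all genes.

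Glycolysis and hypoxia genes were mostly on the lower side, with 18 of 22 wholly lower, 4 wholly higher and 2 set apart lower. The shares were 81.8%, 18.2% and 9.09%, against 40.7%, 35.4% and 2.48% of all genes. Pfkl, the liver phosphofructokinase, was at 25.06 and 21.35 RPKM in the pair and between 50.41 and 53.49 in the others, and Bnip3, a mitophagy receptor, at 72.10 and 73.40 against 159.11 to 171.31 RPKM. The gap of Pfkl fell under 2-fold with a pseudocount of 1 (-0.98 on the log2 scale) or median-of-ratios scaling (-0.95). The growth factor Vegfa was the one member set apart higher, at 159.67 and 161.97 RPKM against 67.70 to 79.04 RPKM. Vegfa is itself a target of both hypoxia and ATF4.

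Structural genes of the cytoskeleton and matrix lay on both sides. Of 24 actin cytoskeleton genes, 4 were set apart lower, 2 higher, and 17 were wholly lower. As shares they were 16.7%, 8.33% and 70.8%, against 2.48%, 3.05% and 40.7% of all genes. Cnn2, calponin 2, was at 52.35 and 51.15 RPKM in the pair and between 165.46 and 175.95 in the others. Ankrd1, a target of YAP, lay the other way at 298.27 and 298.47 RPKM in the pair and between 95.90 and 107.87 in the others. Of 30 extracellular matrix genes, 1 was set apart lower, Col3a1 (60.63 and 59.07 RPKM against 121.55 to 151.92), 16 were wholly lower and 6 wholly higher. Here the shares were 3.33%, 53.3% and 20%, against 2.48%, 40.7% and 35.4% of all genes. Col3a1 lay at the 2-fold limit, with a gap of -0.99 on the log2 scale with a pseudocount of 1 and -0.98 with median-of-ratios scaling, so neither setting kept it apart.

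Among 18 immediate early factors, 3 were set apart higher (Myc, Klf4 and Fosl2), 0 lower, and the list median was -0.05. The share set apart higher was 16.7%, against 3.05% of all genes. The pair was wholly higher in 8 (44.4%) and wholly lower in 7 (38.9%), against 35.4% and 40.7% of all genes. Dusp5 was among the 7, at 4.05 and 4.12 RPKM in the pair and between 8.24 and 13.58 in the others. Klf4, a zinc finger factor, was at 10.10 and 10.95 RPKM in the pair and at 2.34, 1.19, 1.37 and 1.79 RPKM in the others. Of the metallothioneins, Mt2 was at 104.66 and 89.37 RPKM in the pair and between 39.50 and 70.46 in the others, and Mt1 overlapped, at 754.01 and 699.89 RPKM against 745.96 to 967.01 RPKM.

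**Figure D3:**
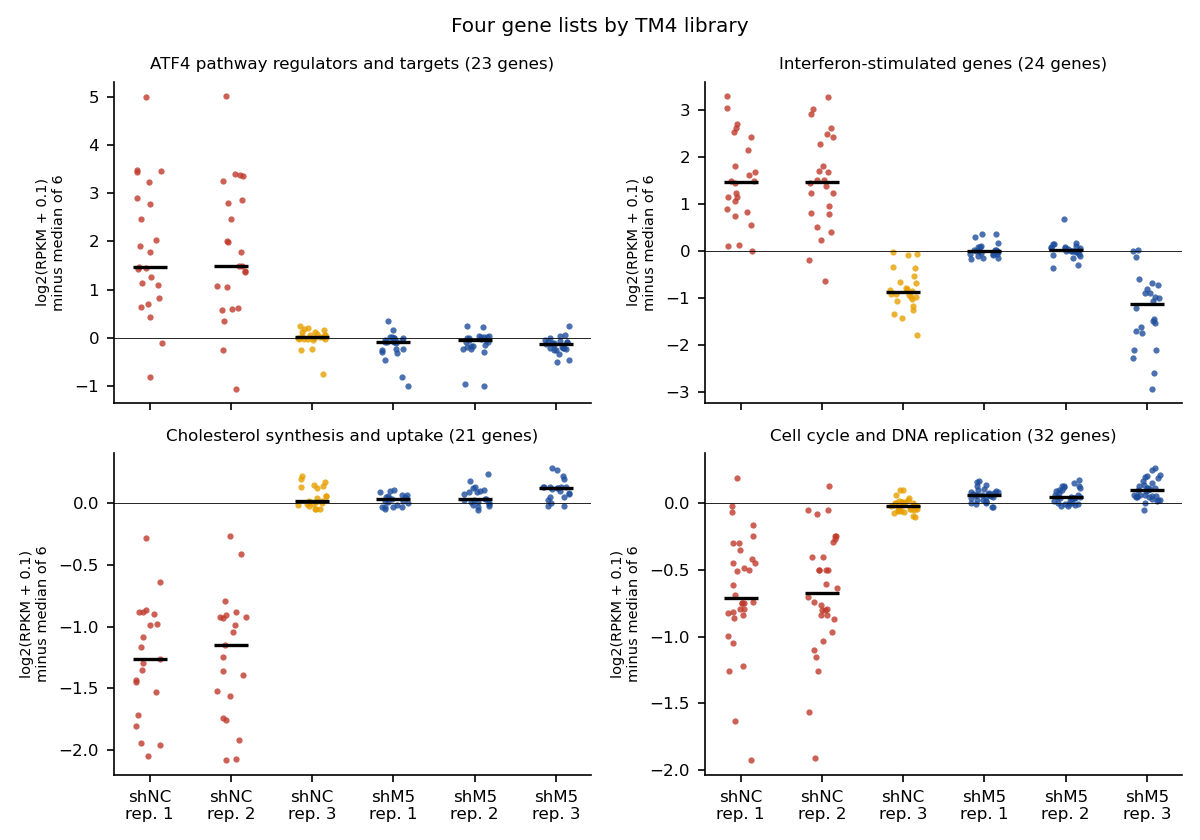
The genes of 4 lists in each of the 6 TM4 libraries, as log2(RPKM + 0.1) minus the gene's median over the 6. Each point is 1 gene, black bars are medians, and colours mark the pair (red), shNC replicate 3 (yellow) and shM5 (blue). In the interferon panel the libraries numbered 3 lie below shM5 replicates 1 and 2, in 22 of 24 genes.

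The TM4 label was checked against Sertoli cell markers. Of 18 with values, 10 were over the filter, and 3 (Trf, Nr0b1 and Aard) were listed at 0 in all 6 libraries. Of the 10, 5 were wholly higher in the pair (2 of them set apart, Gata4 and Kitl), 2 wholly lower and 3 overlapped. Wholly higher were 50% and wholly lower 20%, against 35.4% and 40.7% of all genes. Sox9 was at 1.74 and 1.13 RPKM in the pair and between 1.11 and 1.43 in the others. Gata4 was higher in the pair, at 12.48 and 11.51 RPKM against 4.62 to 5.26, as were the niche factors Kitl (49.50 and 49.41 against 18.42 to 22.73) and Gdnf (9.67 and 8.90 against 2.52 to 4.59). The 2 lower members were Gja1, the gap junction protein connexin 43 (83.99 and 87.20 RPKM against 108.55 to 127.39), and Inha, the inhibin α subunit (1.73 and 1.68 against 1.81 to 2.35). The defining markers Wt1 (0.06 to 0.15 RPKM), Amh (0.08 to 0.19) and Clu (0 to 0.07) were near 0 in all 6 TM4 libraries. Wt1 was at 53.93 to 72.32 RPKM in the C18-4 libraries, a line of germ cells, while 10 germ cell markers summed to 79.28 to 144.42 RPKM there. That sum does not show which of the markers carried it. The markers thus went partly with and partly against the labels of the lines, and the names TM4 and C18-4 are used as the labels give them. Fshr, Dmrt1 and Cst12 were not analysed here.

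Markers of other cell types were near 0 in all 6 TM4 libraries, apart from those of peritubular myoid cells. Summed RPKM in the pair and in the other 4 was 0.11 to 0.30 and 0.12 to 0.37 for 10 germ cell markers (Ddx4, Stra8 and Kit at 0), 0.70 to 1.17 and 0.82 to 1.58 for 7 Leydig markers (Cyp17a1, Hsd3b1 and Nr5a1 at 0), 1.66 to 1.70 and 1.11 to 1.66 for 6 macrophage markers (Adgre1 at 0), and 0.30 to 0.44 and 0.14 to 0.29 for 4 endothelial markers. The 6 myoid markers summed to 131.39 and 126.15 in the pair and 240.39 to 362.49 in the others. Acta2, smooth muscle actin, was at 66.39 and 63.29 RPKM against 139.83 to 193.88, while Myh11 was at or near 0 throughout. In these bulk libraries, fewer cells with a transcript and less of it per cell cannot be told apart.

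RNA of the other line was looked for as well. The 32 genes at 20 RPKM or more in every C18-4 library and at most 0.1 RPKM in the other 4 TM4 libraries summed to 3760.16 to 4646.09 RPKM in C18-4 libraries, and to 0.48 and 0.39 RPKM in the pair. In the other 4 they summed to 0.40 to 0.74 RPKM. The choice of these genes fixed their low level in the other 4 but not in the pair. Over the quartiles of gene abundance and of transcript length, the median log2 ratio lay between -0.10 and 0.02.

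Outside the pair, shNC replicate 3 lay towards it in some lists and away from it in others. It was above all 3 shM5 libraries in 147 of the 336 genes set apart higher (43.8%), against 21.8% of all genes, and in 12 of 23 genes of the ATF4 list. It was the lowest of the 4 in 48.7% of the genes set apart lower and in 68.8% of the cell cycle genes, against 28.8% of all genes. In the interferon-stimulated genes, which were high in the pair, it was above all 3 shM5 libraries in 0 of 24. Its median log2 ratio to the median of the 3 was -0.81, but shM5 replicate 3 was the lowest of the 4 in 16 genes and shNC replicate 3 in 8. Over the genes set apart higher the median of shNC replicate 3 was 0.07 above that of the shM5 libraries on the log2 scale, while the median gene of the pair was 1.61 above the other 4.

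The 6 C18-4 libraries were not used to choose the pair. There, replicate 3 of both the shNC and the shM5 group differed from replicates 1 and 2, a split that was also noticed in the values and is given without a test. Over the 10460 genes above the filter in both lines, 19 (0.182%) were set apart higher in the 2 libraries numbered 3 and 3 (0.0287%) lower. Of the 19 higher genes, 14 (73.7%) were also set apart higher in the TM4 pair, and these 14 were 5.02% of the 279 TM4 genes that could be compared. The 14 were Nupr1, Trib3, Txnip, Chac1, Fgf21, Gadd45a, Gtpbp2, Slc6a9, Slc38a7, Angptl6, Ciart, Tsc22d3, Gdf15 and Otub2.

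Fgf21 was at 65.36 and 34.63 RPKM in the C18-4 libraries numbered 3 and at 14.15, 14.23, 5.78 and 7.56 RPKM in shNC replicates 1 and 2 and shM5 replicates 1 and 2. Trib3 was at 95.11 and 106.92 RPKM against 32.56, 36.23, 31.83 and 30.30 RPKM, and Chac1 at 107.22 and 96.08 against 35.01, 37.72, 35.68 and 36.16 RPKM. Both shRNA groups thus held 1 library with high levels of these genes. Hspa8, lower in the TM4 pair, was wholly lower in the C18-4 libraries numbered 3, at 1003.05 and 870.95 RPKM against 1709.63 to 2001.07, without reaching the 2-fold gap.

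Without the threshold of 2-fold, the C18-4 libraries numbered 3 were wholly higher in 217 of the 279 genes set apart higher in TM4 (77.8%, against 34.2% of all genes) and wholly lower in 120 of the 252 set apart lower (47.6%, against 17.4%). The ATF4 list was wholly higher in 20 of 23 members with a median of 0.78, and the interferon list in 16 of 23 with a median of 0.46. Amino acid transporters were wholly higher in 11 of 12 (median 0.69), autophagy genes in 17 of 20 (median 0.36) and cholesterol genes wholly lower in 10 of 21 (median -0.24), the same direction as in the TM4 pair. Ribosome biogenesis genes, higher in the TM4 pair, lay the other way and were wholly lower in 20 of 25. Across the 10460 genes, which are not independent replicates, the 2 ratios had a Pearson r of 0.40 and a Spearman rho of 0.36. In TM4 the high libraries were numbered 1 and 2 and only in shNC, so the number of the replicate does not mark the same libraries in both lines.

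**Figure D4:**
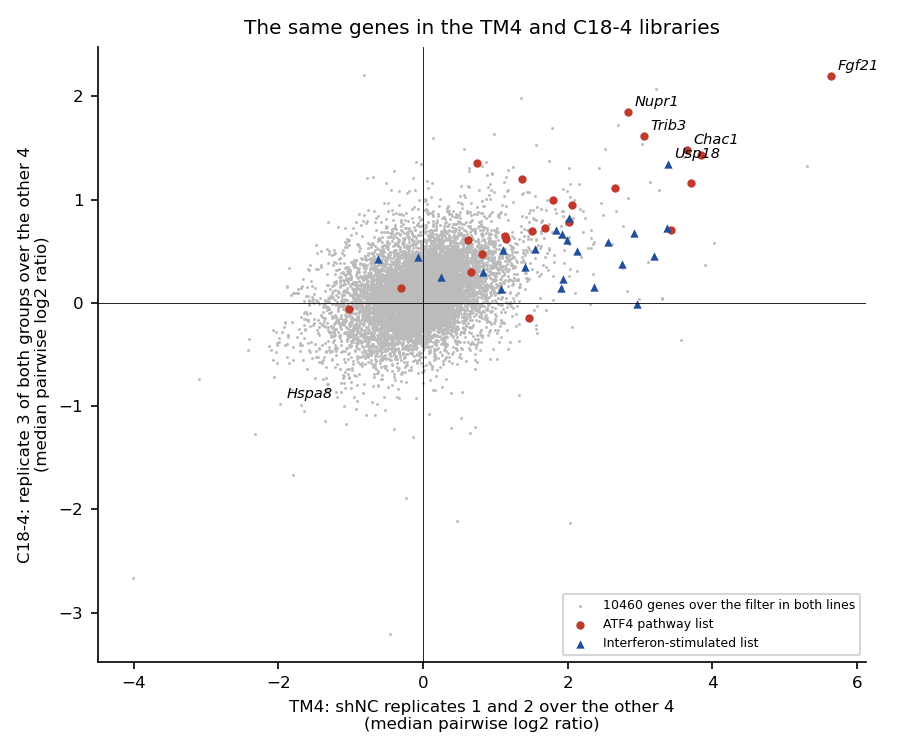
For 10460 genes, the median pairwise log2 ratio of the TM4 pair over the other 4 TM4 libraries against that of the C18-4 libraries numbered 3 over the other 4 C18-4 libraries. Each point is 1 gene, with the ATF4 list in red and the interferon-stimulated list in blue. Fgf21, Trib3, Chac1 and Nupr1 lie in the upper right, and Hspa8 in the lower left.

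The comparison that the labels define, shM5 against shNC, was then set beside the pair. The target gene Chrm5 was listed at 0 in 10 of the 12 libraries and at 0.01 RPKM in the remaining 2, so its mRNA gives no check of the shRNA. The study reported less M5 protein with shM5 in both lines, by immunofluorescence. Its threshold was applied there with another method, DEGseq, which called genes in both directions in TM4. In TM4 cells, limma called, past the study's threshold (adjusted p up to 0.001, log2 ratio beyond 1 in size), 0 of 11016 genes (0%), with 2866 at an unadjusted p below 0.05 and a smallest adjusted p of 0.192. Without shNC replicate 3, so that the pair alone stood for the control, it called 896 genes. This test shares all its libraries with the description and is no support for it.

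In C18-4 cells, limma called 0 of 11611 genes (0%) at that threshold, with 1425 at an unadjusted p below 0.05, and 68 genes (0.586%) at an adjusted p below 0.05. With the replicate number as a block, 9 genes passed the threshold and 1386 (11.9%) had an adjusted p below 0.05, of which 605 (5.21%) were higher and 781 (6.73%) lower with shM5. Of the 531 genes set apart in TM4 and tested in C18-4, 0 passed the threshold (57 at an unadjusted p below 0.05) and 4 had an adjusted p below 0.05. These 4 were Ccl7 and Prrx2 (a homeobox factor), which were lower with shM5, and Col3a1 and Itgb3 (integrin β3), which were higher. These counts depended on single libraries. Leaving out C18-4 shNC replicate 1 or 2, or shM5 replicate 1 or 2, took both the 68 genes and the 4 to 0. Without shNC replicate 3 they were 237 and 8, without shM5 replicate 3 they were 31 and 4, and with no filter on low values 4 and 0. With the block, 1 of the 531 passed the threshold, Acta2, and 75 had an adjusted p below 0.05.

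Among these 75, the block fit called 44 of the 279 genes set apart higher in TM4, 14 higher and 30 lower with shM5. It called 31 of the 252 set apart lower, 17 higher and 14 lower. The shares were 15.8% and 12.3%, near the 11.5% of all described genes that were tested. Ccl7 was at 19.35, 20.04 and 20.17 RPKM with shNC and at 7.44, 7.05 and 11.58 RPKM with shM5 in C18-4 cells, a log2 ratio of -1.22 ± 0.183 (SE, limma, adjusted p = 0.0467). Acta2 was at 23.70, 19.80 and 15.90 RPKM with shNC and at 56.74, 61.81 and 34.63 with shM5, a log2 ratio of 1.34 with adjusted p = 0.0764 in limma and 0.000608 with the block. Genes of the ATF4 pathway varied with the fit. Of the 23 genes of the list, at an adjusted p below 0.05 limma called 0 without the block and 8 with it. With the block 3 were higher and 5 lower (34.8% in all, against 11.5% of all described genes tested). Chac1 had a log2 ratio of -0.06 ± 0.527 (SE, limma, adjusted p = 0.986), Trib3 one of -0.04 ± 0.577 (adjusted p = 0.993) and Atf4 one of -0.06 ± 0.122 (adjusted p = 0.911). Fgf21 had a log2 ratio of -1.03 with adjusted p = 0.708 in limma and 0.00104 with the block. The adjusted p of Atf3 went from 0.738 to 0.00557 with the block, and that of Gdf15 from 0.878 to 0.0124.

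Phldb2, a cortical scaffold protein that the study followed, was at 50.25 and 51.37 RPKM in the pair and at 29.94, 25.77, 25.34 and 29.11 RPKM in the others, so shNC replicate 3 lay with the shM5 libraries. In C18-4 cells Phldb2 was at 78.19, 79.74 and 83.41 RPKM with shNC and at 49.43, 52.36 and 62.99 RPKM with shM5, a log2 ratio of -0.56 ± 0.0996 (SE, limma, adjusted p = 0.0768, and 0.00251 with the block). The study also reported less PHLDB2 protein with shM5 in both lines. The 2 control libraries that carried the high ATF4 and interferon genes in TM4 were also those with high Phldb2 mRNA. The part of that programme in the Phldb2 difference was not tested.

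At the filter itself, Arl4a and Kifc2 had a mean of 0.50 RPKM and were described, while Kcna4 and Cubn, with 0.4983, were not. Arl4a was between 0.33 and 0.67 RPKM in the 6 libraries and Kcna4 between 0.35 and 0.77.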

How the data were processed

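The authors deposited 1 table of RPKM values for 17995 genes and 12 mouse RNA-seq libraries, rounded to 2 decimals. Per the study's methods, reads from an Illumina HiSeq were mapped to reference genes with SOAPaligner, and the read number per gene was converted to RPKM. The genome build is not given in the sources used here, and no read counts were used. The members and gene lists were chosen with earlier results of these data known. The pair was compared with the other 4 TM4 libraries on log2(RPKM + 0.1) without a test. Genes named are the 12 with the largest gap per direction at 5 RPKM or more on the high side, up to 3 per list with the largest size at a mean of at least 1 RPKM, and a short list always named. Others were chosen after their values were seen, namely Nupr1, Hmgcs1, Ifit1, Eif2ak3, Eif2ak4, Hspa5, Pdia4, Calr, Hsp90b1, Cdt1, Mthfd1, Tyms, Fosl2, Itgb3, Prrx2 and those shared with C18-4 cells. S6 kinase genes and assembly factors taken by the name patterns of the ribosomal protein and oxidative phosphorylation lists were removed after the values were seen. For shM5 against shNC, limma 3.58.1 in R 4.3.3 was fitted per line with a trend and Benjamini-Hochberg adjustment, and p-values measure the spread between libraries that may be technical replicates. Other steps used Python 3.11.15 with numpy 2.4.6 and pandas 2.3.3. C18-4 libraries with the same number deviated together from their group means (correlations across genes 0.439, 0.409 and 0.631). Across numbers, shNC 1 with shM5 2 gave 0.341 and shNC 2 with shM5 1 gave 0.345. The values thus set replicate 3 apart but hardly tell replicates 1 and 2 from each other. The block by number was taken as a hint from the data and not from the labels, and the results with the block rest on it. Some genes that the naming rule selected are not reported here.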

Additional observations from a re-analysis of the deposited data

How the results depend on the processing

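The genes set apart numbered 336 higher and 273 lower. A gap of 1.5-fold gave 900 and 989, a gap of 3-fold 125 and 39, and a pseudocount of 1 gave 261 and 159. Median-of-ratios scaling (362 and 242), no filter (394 and 298) and a mean of at least 1 RPKM (309 and 263) stayed within 1.5 times. Leaving out 1 TM4 library gave 350 to 369 higher and 284 to 366 lower, all larger because fewer libraries had to be separated. Of 720 gaps recomputed for 90 named genes, 0 changed direction, 653 moved by less than the SD of the other 4 libraries and 67 by more, and of 104 list counts 94 stayed within 1.5 times. The 1 matrix gene set apart lower became 0 with a pseudocount of 1 or the scaling, and the 1 histone set apart higher became 0 with a pseudocount of 1.

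For shM5 against shNC in TM4, limma called 0 genes, and 0 to 896 when 1 library was left out, the 896 being without shNC replicate 3. In C18-4 it called 0, with 0 to 0 when 1 library was left out, 68 at an adjusted p below 0.05 without the fold threshold (0 to 237 without 1 library), and 9 with the replicate block. Of the genes set apart in TM4, 0 were called in C18-4 (0 to 0 without 1 library), 4 at an adjusted p below 0.05 (0 to 8 without 1 library) and 1 with the block. The TM4 replicate block gave 0 genes (2568 at an unadjusted p below 0.05). Same-numbered TM4 libraries correlated weakly in their deviations, at 0.073, 0.049 and 0.127, and shNC replicates 1 and 2 each correlated best with the other number. Number 3 with number 1 or 2 gave -0.120 to -0.070. The values thus set the TM4 libraries numbered 3 weakly together but do not pair replicates 1 and 2 by number. Since no counts were used, the precision of low values is limited by the unknown number of reads, and 2 libraries against 4 chosen by their values allow no test.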

Other observations

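Among the 4 TM4 libraries outside the pair, some lists differed by replicate number as the interferon-stimulated genes did. Both libraries numbered 3 were above shM5 replicates 1 and 2 in 22 of 25 ribosome biogenesis genes, 14 of 18 immediate early factors, 14 of 22 NRF2 antioxidant genes and 17 of 24 actin cytoskeleton genes, against 2338 of 11016 genes. They were both below in 22 of 30 extracellular matrix genes and 11 of 20 ER genes, against 3706 of 11016. These values are given without a test, since the split by number was noticed in the values.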
